A study of Mus musculus with 11 samples.

Results

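Glycolysis, lactate export and the pentose phosphate pathway were followed through 35 genes, listed by their known roles from glucose uptake to the non-oxidative pentose phosphate steps. Of these, 30 had a probe under their symbol in the platform annotation, and all 30 had one above background. By the same annotation 15908 genes were above background among 22491 with a probe. Hk2, Gpi1, Eno1, Ldhb and G6pdx were listed but not analysed here. The 30 genes had 50 probes, of which 45 were above background, and the probe with the highest mean intensity stands for its gene unless another is named. The cells were a mouse embryonic fibroblast line that is p53-/- and TSC2-/- in all groups, so no group has a working copy of TSC2 and the labels name no TSC2-positive comparison. Crebl2 siRNA with rapamycin had 3 arrays, Crebl2 siRNA with ethanol 3, luciferase siRNA with rapamycin 3 and luciferase siRNA with ethanol 2. Rapamycin was given at 20 nM for 12 h, ethanol for the same time, after 3 days of siRNA by the labels (2.5 days by the design text, which writes the target as Creb2). The labels do not say whether replicates were separate cultures, and the p-values reflect no more than the scatter of these arrays, which may be technical.

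TSC2 restrains mTORC1, a kinase complex that promotes growth and that rapamycin inhibits. In TSC2-null fibroblasts mTORC1 is active without growth factors and is known to raise glycolytic and pentose phosphate gene expression, in part through the hypoxia-inducible factor HIF-1 and through SREBP. Glycolysis takes glucose in through GLUT transporters, phosphorylates and splits it, and yields pyruvate, which lactate dehydrogenase turns into lactate for export or pyruvate dehydrogenase admits to the mitochondrion. The pentose phosphate pathway branches off at glucose 6-phosphate and makes NADPH in its oxidative steps and ribose 5-phosphate in its non-oxidative ones. Crebl2 is a bZIP protein related to the CREB family.

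Total RNA was hybridised to single-colour bead arrays, and values are the authors' normalized intensities, whose array medians lay between 110.5 and 112.4. The lowest intensity with a detection p-value under 0.05 was 106.5 to 109.9, depending on the array, so intensities near 110 carry little signal over background. No normalized value was under 76.3, so a background level remains in the values, which compresses differences of dim probes. The single Crebl2 probe was at 111, 118 and 105 with Crebl2 siRNA and rapamycin, 135, 112 and 103 with Crebl2 siRNA and ethanol, 117, 149 and 148 with luciferase siRNA and rapamycin, and 132 and 133 with luciferase siRNA and ethanol. Near background, its log2 difference between Crebl2 and luciferase siRNA was -0.19 ± 0.13 in ethanol (SE, adjusted p = 0.47) and -0.30 ± 0.12 in rapamycin (adjusted p = 0.082), so the knockdown was not detectable on these arrays. The Tsc2 probe gave 582 to 1253 on the 11 arrays, and its place relative to the deleted part of the gene is not known here, so it does not check the genotype. Of 14 fibroblast markers 13 were above background, with summed intensities of 60380 to 61994 with Crebl2 siRNA and rapamycin, 47180 to 57620 with Crebl2 siRNA and ethanol, 55150 to 56775 with luciferase siRNA and rapamycin, and 43885 to 45178 with luciferase siRNA and ethanol. Markers of other cell types above background numbered 3 of 7 for macrophages, 6 of 6 for endothelium, 4 of 6 for epithelium, 3 of 6 for muscle and 3 of 6 for adipocytes. Markers with no probe above background included Lum for fibroblasts, Ptprc, Adgre1 and Tyrobp for macrophages and Epcam for epithelium. Further absent markers, among them epithelial, muscle and adipocyte ones, are not named here. Crebl2 siRNA with ethanol replicate 3 and all 3 Crebl2 siRNA with rapamycin arrays stood apart from the other 7 on the first principal component, which held 76.2% of the variance. Comparisons that use Crebl2 siRNA with rapamycin are therefore also given with these 4 arrays as a block, and in that fit they rest on the 1 array of another group among them.

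Because mTORC1 acts on this pathway partly through transcription factors, the 250 bases before the transcription start are shown for the 6 genes that fell most with rapamycin in luciferase siRNA cells (RefSeq, GRCm38.p6, each on its gene's strand, 5′ to 3′). Capitals mark ACGTG or GCGTG on either strand, the core letters of the HIF response element, and each CACGTG holds ACGTG on both strands and counts for 2 matches. Slc2a1 (chr4:119108495-119108744, plus strand) held 2 matches, Pfkl (chr10:78009808-78010057, minus strand) 1, Pfkp (chr13:6648772-6649021, minus strand) 3, Eno2 (chr6:124769674-124769923, minus strand) 0, Ldha (chr7:46845554-46845803, plus strand, the one of 2 listed starts shown) 5, and Rpia (chr6:70792176-70792425, minus strand) 1.
Slc2a1: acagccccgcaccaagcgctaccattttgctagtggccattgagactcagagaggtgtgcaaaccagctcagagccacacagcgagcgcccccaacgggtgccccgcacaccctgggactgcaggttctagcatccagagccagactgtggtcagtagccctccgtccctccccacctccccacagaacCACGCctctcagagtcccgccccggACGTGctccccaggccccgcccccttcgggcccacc
Pfkl: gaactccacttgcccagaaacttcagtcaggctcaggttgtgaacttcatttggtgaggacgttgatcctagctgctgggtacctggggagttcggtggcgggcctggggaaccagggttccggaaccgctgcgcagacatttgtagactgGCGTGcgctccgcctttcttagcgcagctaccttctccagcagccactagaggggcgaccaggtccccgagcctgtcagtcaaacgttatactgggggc
Pfkp: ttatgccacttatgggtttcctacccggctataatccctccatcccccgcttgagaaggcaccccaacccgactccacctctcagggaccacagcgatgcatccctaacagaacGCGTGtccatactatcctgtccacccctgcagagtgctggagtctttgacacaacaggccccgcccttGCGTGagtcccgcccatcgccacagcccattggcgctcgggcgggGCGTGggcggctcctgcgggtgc
Eno2: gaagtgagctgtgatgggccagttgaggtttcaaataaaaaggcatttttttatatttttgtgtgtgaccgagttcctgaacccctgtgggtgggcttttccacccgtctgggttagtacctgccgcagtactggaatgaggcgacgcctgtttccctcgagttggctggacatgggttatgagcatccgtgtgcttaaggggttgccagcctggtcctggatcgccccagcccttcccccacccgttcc
Ldha: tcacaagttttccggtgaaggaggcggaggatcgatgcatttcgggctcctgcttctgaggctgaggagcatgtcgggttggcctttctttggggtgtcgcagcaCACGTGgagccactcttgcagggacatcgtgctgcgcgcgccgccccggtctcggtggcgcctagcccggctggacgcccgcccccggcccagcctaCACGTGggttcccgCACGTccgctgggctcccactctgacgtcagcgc
Rpia: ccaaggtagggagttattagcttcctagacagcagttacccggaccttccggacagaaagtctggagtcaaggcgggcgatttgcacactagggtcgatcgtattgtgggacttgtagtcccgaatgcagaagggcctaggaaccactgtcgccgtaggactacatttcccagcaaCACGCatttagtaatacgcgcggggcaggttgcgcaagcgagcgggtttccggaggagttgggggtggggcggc
In these windows of the same length, 29 of 34 listed genes with a RefSeq start (85.3%) held ACGTG or GCGTG, against 56.4% of 11103 genes above background and 41.5% of all 27018 genes. A gene counted where any of its listed starts matched, and by window 37 of 49 matched, against 38.6% of all 32841 windows. The 34 include listed genes that were not analysed on the arrays. CACGTG, the E-box bound by MYC and ChREBP and contained in the marked letters, was in 5 of 34 (14.7%), against 9.28% of genes above background and 6.86% of all genes. TGACG, the core of the cyclic AMP response element, was in 7 of 34 (20.6%), against 27.7% of genes above background and 19.8% of all genes. No test was run on these shares, and a match is a description of the letters.

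Rapamycin against ethanol in luciferase siRNA cells asks how RNA levels of the pathway differ with this mTORC1 inhibitor. Both glucose transporters, 5 of 6 upper glycolysis genes, neuronal enolase and lactate dehydrogenase A fell, while the pentose phosphate genes moved both ways. By the best probe, 10 of 30 genes fell and 2 rose, at an adjusted p under 0.05 in a limma fit over all 28936 probes above background. Over all 15908 genes 4.46% fell and 4.8% rose. The median log2 difference of the 30 genes was -0.23, against 0.02 over all genes, and 24 of the 30 values were below 0. The 2 groups did not overlap for 24 of the 30 genes, against 44.5% of all genes. In the 23 glycolysis and lactate genes 9 fell and 0 rose, with 20 differences below 0 and a median of -0.34. In the 7 pentose phosphate genes 1 fell and 2 rose, with a median of -0.05. In bulk RNA, fewer cells of a kind and less RNA per cell cannot be told apart.

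**Figure D1:**
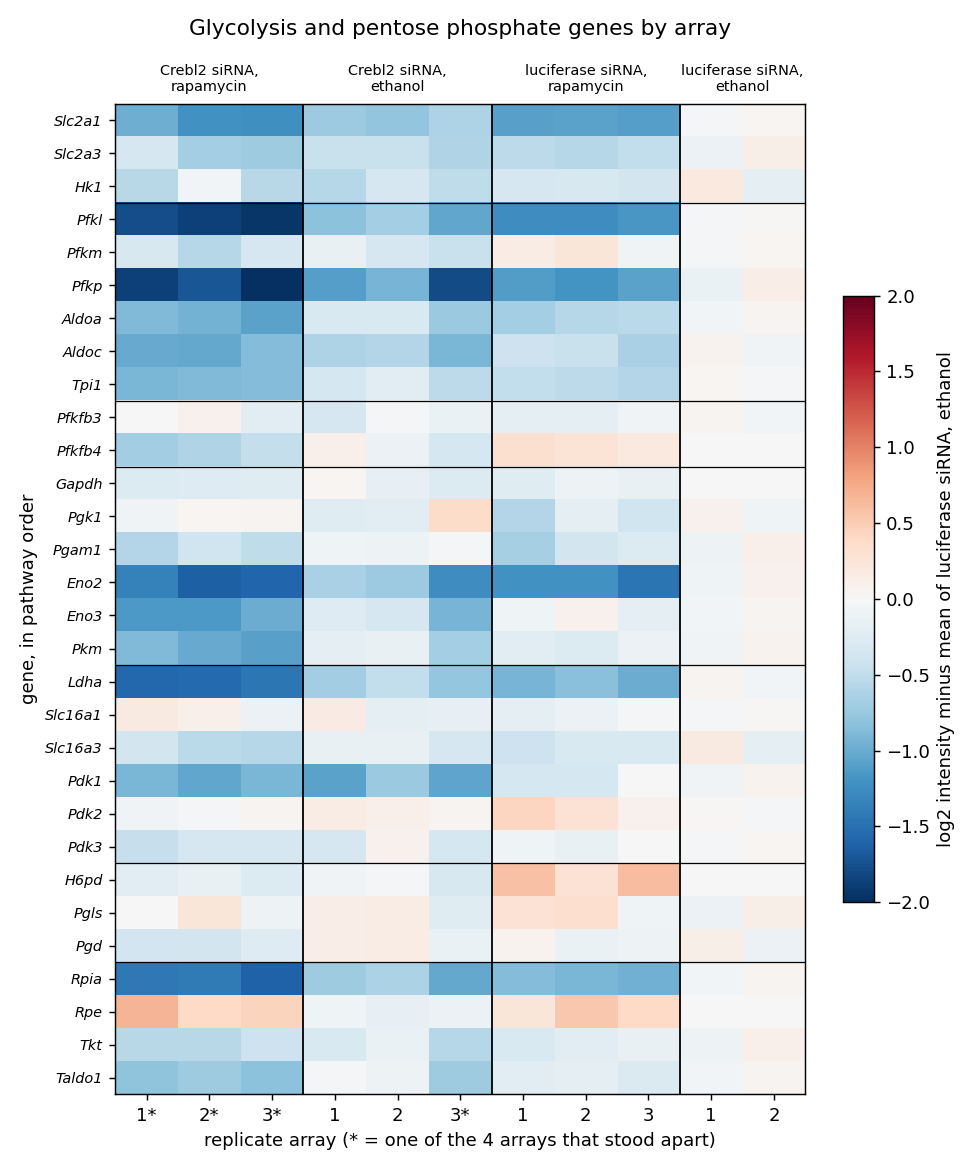
Log2 intensity of the best probe of 30 genes (rows, in pathway order) on 11 arrays (columns by group), minus the mean of the 2 luciferase siRNA, ethanol arrays; blue is lower and red higher, and asterisks mark the 4 arrays that stood apart. Slc2a1, Pfkl, Pfkp, Eno2, Ldha and Rpia are blue in every array of the 3 other groups, and H6pd is red in the 3 luciferase siRNA, rapamycin arrays.

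Slc2a1 encodes GLUT1, the main glucose transporter of fibroblasts. Its intensity was 1526, 1539.9 and 1507 with rapamycin, against 3158 and 3333 with ethanol, in luciferase siRNA cells. All 3 rapamycin arrays lay below both ethanol arrays, with a log2 difference of -1.09 ± 0.09 (SE, adjusted p = 0.000161), 2.13-fold lower. Slc2a3, which encodes the high-affinity transporter GLUT3, was at 199, 192 and 203 with rapamycin against 264 and 308 with ethanol. It fell by 0.53 on the log2 scale (SE 0.12, adjusted p = 0.0264), again without overlap of the groups. Hk1, the hexokinase that traps glucose as glucose 6-phosphate, was at 157, 160.4 and 154 with rapamycin against 229 and 174 with ethanol. The ethanol arrays of Hk1 differed from each other more than the rapamycin arrays did, and its log2 difference of -0.34 ± 0.16 did not pass the test (adjusted p = 0.295).

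Phosphofructokinase commits glucose to glycolysis and has 3 subunit genes, named for liver, muscle and platelet. The liver subunit gene Pfkl was at 832, 833 and 881 with rapamycin against 1950.2 and 1994 with ethanol. It fell 2.32-fold, with a log2 difference of -1.22 ± 0.10 (adjusted p = 0.00016) and 3 tightly grouped rapamycin arrays. A second Pfkl probe close to background, between 110 and 172 on all 11 arrays, had a log2 difference of -0.32 ± 0.14 (adjusted p = 0.236). The platelet subunit gene Pfkp was at 506, 477 and 523 with rapamycin against 1004 and 1199 with ethanol, 2.19-fold lower (-1.13 ± 0.21, adjusted p = 0.00985). Its second probe above background also fell, by 0.58 (adjusted p = 0.0233), and both Pfkp probes were highest in the ethanol arrays. The muscle subunit gene Pfkm gave 3854, 4138 and 3335 with rapamycin and 3393 and 3596 with ethanol. Its groups overlapped and the log2 difference was 0.11 ± 0.12 (adjusted p = 0.76), with 2 further probes at -0.01 and -0.15, neither past the test.

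Aldolase splits fructose 1,6-bisphosphate, and triose phosphate isomerase interconverts the products. Aldoa, the widespread aldolase, was at 3451, 3743 and 3813 with rapamycin against 5316 and 5749 with ethanol, 1.51-fold lower (-0.59 ± 0.13, adjusted p = 0.0201). Aldoc, the brain form, was at 608, 597 and 514 with rapamycin against 852 and 769.6 with ethanol, 1.42-fold lower (-0.50 ± 0.12, adjusted p = 0.029). Neither aldolase gene had overlapping groups. Tpi1, the isomerase, was at 14997, 14649 and 14116 with rapamycin against 21736 and 20566 with ethanol. It fell 1.45-fold (-0.54 ± 0.09, adjusted p = 0.00636), and a second Tpi1 probe fell by 0.57 (adjusted p = 0.00166). Another Tpi1 probe, at 240 to 306 with rapamycin against 362 and 385 with ethanol, had a difference of -0.44 ± 0.14 that did not pass (adjusted p = 0.105).

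Pfkfb3 and Pfkfb4 make and break fructose 2,6-bisphosphate, an activator of phosphofructokinase. Pfkfb3 was detected on 1 of 3 rapamycin arrays and its difference of -0.15 ± 0.12 was not past the test (adjusted p = 0.598). Pfkfb4 was at 481, 464 and 441 with rapamycin against 388 and 381 with ethanol, with rapamycin arrays above ethanol arrays but a difference of 0.26 ± 0.12 that did not pass (adjusted p = 0.274).

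The lower glycolysis genes, from Gapdh to pyruvate kinase, gave 6 values below 0, of which 1 passed, and 3 with the 4 arrays that stood apart as a block. Eno2, the enolase named for neurons, was at 701, 698 and 589.8 with rapamycin against 1533 and 1716 with ethanol. At 2.46-fold lower (-1.30 ± 0.17, adjusted p = 0.00124) it had the most negative difference of the 30 genes. Eno3, the enolase named for muscle, gave 1619, 1825 and 1495 with rapamycin and 1654 and 1769 with ethanol, so its groups overlapped, and the difference was -0.06 ± 0.17 (adjusted p = 0.935). Gapdh, which oxidises glyceraldehyde 3-phosphate, was at 12829, 14193 and 13792 with rapamycin against 15340.0 and 15129 with ethanol (-0.16 ± 0.10, adjusted p = 0.42). Pkm, pyruvate kinase, had a difference of -0.20 ± 0.15 (adjusted p = 0.566), and Pgam1, phosphoglycerate mutase, one of -0.43 ± 0.12 (adjusted p = 0.0551, with the block 0.00497). For Pgk1, phosphoglycerate kinase, the probe with the highest mean gave -0.39 ± 0.18 (adjusted p = 0.276, with the block 0.0103), while another, at 156, 152 and 162 with rapamycin against 251 and 221 with ethanol, fell by 0.59 (adjusted p = 0.0314).

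Ldha, the lactate dehydrogenase subunit favoured in glycolytic cells, was at 4340.5, 4610.5 and 4160.4 with rapamycin against 8591 and 7941 with ethanol. Every rapamycin array lay below both ethanol arrays, and the log2 difference was -0.92 ± 0.10 (adjusted p = 0.0005), 1.89-fold lower. Slc16a1 (MCT1) was not detected on any of the 5 luciferase siRNA arrays, and Slc16a3 (MCT4) was at 134, 145 and 144 with rapamycin against 203 and 157 with ethanol (-0.34 ± 0.12), without overlap. This exporter did not pass over 11 arrays (adjusted p = 0.13) but did with the 4 arrays as a block (adjusted p = 0.0223). The pyruvate dehydrogenase kinases, which keep pyruvate out of the mitochondrion, had differences of -0.24 ± 0.13 for Pdk1, 0.27 ± 0.10 for Pdk2 and -0.08 ± 0.13 for Pdk3, with adjusted p of 0.404, 0.159 and 0.847 in that order.

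In the oxidative pentose phosphate steps, H6pd, the hexose 6-phosphate dehydrogenase of the endoplasmic reticulum, was at 2066, 1689 and 2101 with rapamycin against 1379 and 1374 with ethanol. It rose 1.41-fold (0.50 ± 0.12, adjusted p = 0.0271), with the 2 ethanol arrays almost equal. The lactonase Pgls (0.18 ± 0.16, adjusted p = 0.671) and the NADPH-forming dehydrogenase Pgd (-0.05 ± 0.11, adjusted p = 0.909) did not pass. In the non-oxidative steps, the 2 enzymes that act on ribulose 5-phosphate moved in opposite directions. Rpia, which converts it to ribose 5-phosphate for nucleotides, was at 374, 361 and 349 with rapamycin against 659 and 704 with ethanol, 1.89-fold lower (-0.91 ± 0.12, adjusted p = 0.00113). Rpe, which converts it to xylulose 5-phosphate, was at 168, 206 and 188 with rapamycin against 141 and 142 with ethanol, 1.31-fold higher (0.40 ± 0.11, adjusted p = 0.0488). Neither gene had overlapping groups, and a second Rpe probe lay at background. Transketolase, Tkt (-0.23 ± 0.12, adjusted p = 0.382), and transaldolase, Taldo1 (-0.23 ± 0.17, adjusted p = 0.549), did not pass.

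Of the 12 calls, those of Slc2a1, Pfkl, Eno2, Ldha and Rpia held in all 11 fits that left out 1 array. Tpi1 held in 10 and Pfkp in 9, each lost without an ethanol array (adjusted p up to 0.0765 and 0.125). Aldoc and H6pd held in 7, Slc2a3 and Aldoa in 6 and Rpe in 3, with adjusted p up to 0.254 among these 5, and every value kept its sign. Leaving out an array of a group not compared could change only the spread, not the difference, here and in the later comparisons. All 12 calls also held in the fit with the 4 arrays as a block, where Pgk1, Pgam1 and Slc16a3 passed too, so that 13 of 30 genes fell and 2 rose, against 9.76% and 11.7% of all genes. None of the luciferase siRNA arrays is among those 4, so the block could change only the spread here and left every difference as it was. With neqc, the calls of Slc2a1, Pfkl, Pfkp, Eno2, Ldha, Rpia and Rpe held and the other 5 did not. It starts from the non-normalized intensities and combines background correction, an offset and quantile normalization.

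**Figure D2:**
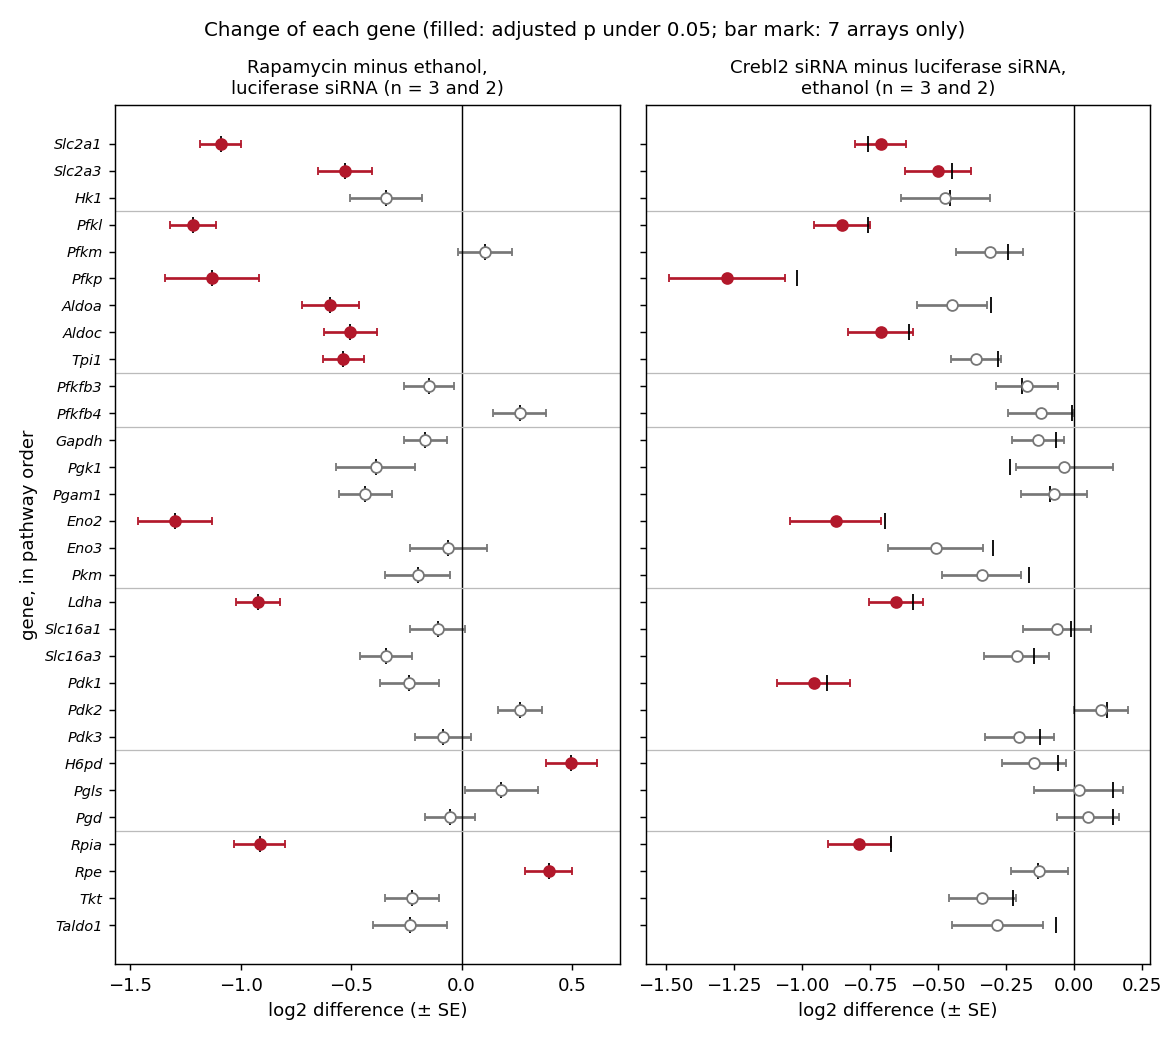
Log2 difference with its SE for each gene (rows), rapamycin minus ethanol with luciferase siRNA on the left and Crebl2 siRNA minus luciferase siRNA with ethanol on the right; filled points passed the test and black marks give the value from the 7 arrays that did not stand apart. On the left 10 filled points lie below 0 and 2 above, and on the right 9 lie below 0 and 0 above.

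Ratios of 2 isoform probes on the same array show unequal change within a family, and 11 pairs were compared. In luciferase siRNA cells the log2 ratio of Pfkl over Pfkm was -2.21, -2.31 and -1.92 with rapamycin, against -0.80 and -0.85 with ethanol, a change of -1.32. The ratio of Pfkm over Pfkp changed by 1.24 and that of Eno2 over Eno3 by -1.24, also without overlap of the groups. Slc2a1 over Slc2a3 changed by -0.56 and Pfkfb3 over Pfkfb4 by -0.41. For these 5 pairs the exact two-sided permutation p was 0.1, the smallest that 3 against 2 arrays allow, and 0.22 after adjustment over the 11 pairs, so this exact test cannot pass 0.05 here. Pfkl over Pfkp changed by -0.09 (exact p = 0.5) and Aldoa over Aldoc by -0.09 (exact p = 0.6), with overlapping groups. A ratio of a bright and a dim probe depends on the background. With neqc Slc2a1 changed by -1.15 and the dimmer Slc2a3 by -0.88, against -1.09 and -0.53 without it, so these 2 lay closer together. Pfkfb3, near background, and Pfkfb4 lay further apart with neqc, at -0.57 and 0.29, against -0.15 and 0.26 without it.

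**Figure D3:**
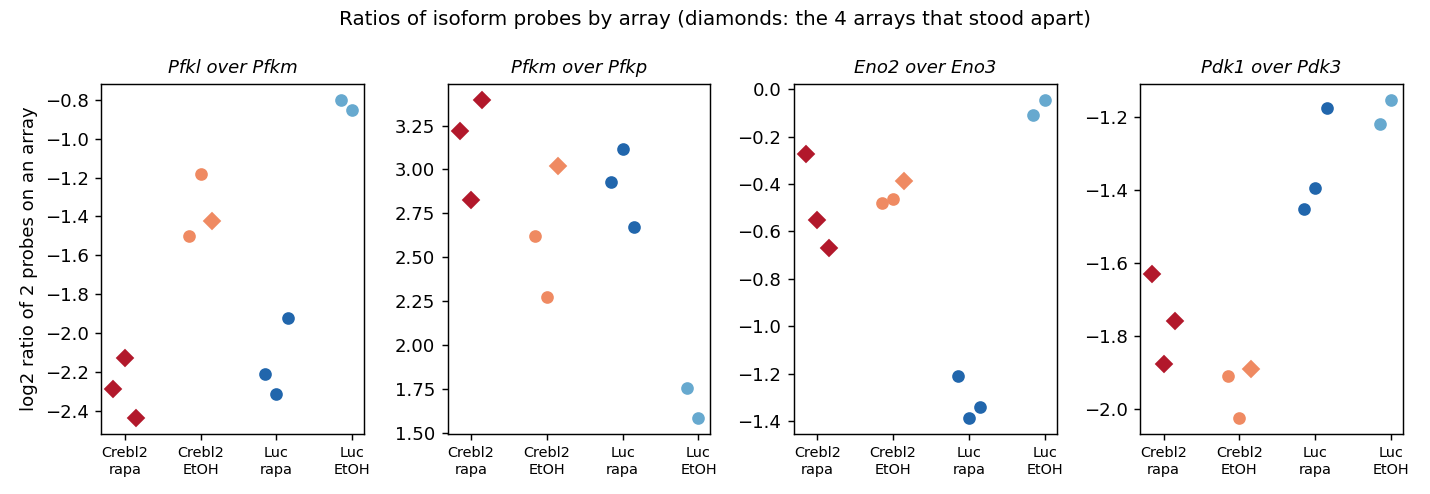
Log2 ratio of 2 probes on each array (points), for 4 pairs and 4 groups; diamonds are the 4 arrays that stood apart. Pfkl over Pfkm and Eno2 over Eno3 lie lower, and Pfkm over Pfkp higher, in luciferase siRNA with rapamycin than in luciferase siRNA with ethanol, while Pdk1 over Pdk3 is lowest in the Crebl2 siRNA groups.

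Crebl2 siRNA against luciferase siRNA in ethanol asks what differs with the Crebl2 siRNA where no rapamycin was given. As the knockdown was not detectable on these arrays, the differences are those of the siRNA. Both glucose transporters, 2 of 3 phosphofructokinase subunit genes, Aldoc, Eno2, Ldha, Pdk1 and Rpia fell, and no gene of the set rose. By the best probe 9 of 30 genes fell and 0 rose, where 5.32% of all genes fell and 1.32% rose. The median log2 difference was -0.32, against -0.03 over all genes, and 27 of 30 values were below 0. Groups did not overlap for 19 of 30 genes, against 37.5% of all genes. This comparison and that of rapamycin with luciferase siRNA share the 2 luciferase siRNA, ethanol arrays, so their values stand side by side without a test of likeness. In ethanol the summed intensity of 4 epithelial markers was 2452 to 4161 with Crebl2 siRNA against 4685 to 4747 with luciferase siRNA, and that of 6 endothelial markers was 1077 to 1204 with Crebl2 siRNA against 1364 to 1403 with luciferase siRNA. Both sums were thus lower with Crebl2 siRNA on every array, but bright genes weigh most in a sum. By gene, the median log2 difference was -0.343 for the epithelial markers (1 of 4 fell) and -0.037 for the endothelial markers (1 of 6 fell). The part of these markers in the falls of the listed genes was not tested.

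Slc2a1 was at 1960.2, 1886 and 2116 with Crebl2 siRNA against 3158 and 3333 with luciferase siRNA, 1.63-fold lower (-0.71 ± 0.09, adjusted p = 0.00234). Pfkl was at 1112, 1225 and 958 with Crebl2 siRNA against 1950.2 and 1994 with luciferase siRNA, 1.8-fold lower (-0.85 ± 0.10, adjusted p = 0.00154). In both genes all 3 Crebl2 siRNA arrays lay below both luciferase siRNA arrays, and these 2 calls held in all 11 fits that left out 1 array. Pfkp was at 512, 575 and 316 with Crebl2 siRNA against 1004 and 1199 with luciferase siRNA, 2.42-fold lower (-1.28 ± 0.21, adjusted p = 0.00742). Its replicate 3, one of the arrays that stood apart, was the lowest, and with the 4 arrays as a block the value was -1.02 (adjusted p = 1.47e-06). Pdk1, a pyruvate dehydrogenase kinase known as a HIF-1 target, was at 226, 283 and 228 with Crebl2 siRNA against 450.1 and 499 with luciferase siRNA, 1.94-fold lower (-0.96 ± 0.13, adjusted p = 0.00317). All 3 Pdk1 values with Crebl2 siRNA were below both with luciferase siRNA. The other kinases gave 0.10 ± 0.10 for Pdk2 (adjusted p = 0.628) and -0.20 ± 0.13 for Pdk3 (adjusted p = 0.435). On the same arrays the log2 ratio of Pdk1 over Pdk3 was -1.91, -2.03 and -1.89 with Crebl2 siRNA, against -1.22 and -1.15 with luciferase siRNA.

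Eno2 was at 1029.8, 978 and 688 with Crebl2 siRNA against 1533 and 1716 with luciferase siRNA, 1.83-fold lower (-0.88 ± 0.17, adjusted p = 0.0137). Ldha was at 5099, 5896 and 4835 with Crebl2 siRNA against 8591 and 7941 with luciferase siRNA, 1.57-fold lower (-0.65 ± 0.10, adjusted p = 0.00494). Rpia was at 416, 439 and 336 with Crebl2 siRNA against 659 and 704 with luciferase siRNA, 1.73-fold lower (-0.79 ± 0.12, adjusted p = 0.00417). None of the 3 genes had overlapping groups, and replicate 3, which stood apart, was the lowest array in all 3, as it was in Pfkl, Aldoc and Slc2a3. Aldoc (526, 538 and 429 against 852 and 769.6, -0.71 ± 0.12, adjusted p = 0.0076) and Slc2a3 (208, 209.8 and 187 against 264 and 308, -0.50 ± 0.12, adjusted p = 0.04) also fell. Tpi1 had a value of -0.36 ± 0.09 (adjusted p = 0.0504) and Aldoa one of -0.45 ± 0.13 (adjusted p = 0.0753), short of the threshold. A second Tpi1 probe gave -0.15 ± 0.08 (adjusted p = 0.337), and the Pfkl probe near background -0.15 ± 0.14 (adjusted p = 0.602). Pgk1 gave -0.03 ± 0.18 (adjusted p = 0.943), while another of its probes fell by 0.65 (adjusted p = 0.0255). The second Pfkp probe fell by 0.58 (adjusted p = 0.028). In the oxidative pentose phosphate steps no gene passed, and H6pd was at 1305, 1339.9 and 1102 with Crebl2 siRNA against 1379 and 1374 with luciferase siRNA (-0.15 ± 0.12, adjusted p = 0.534). Rpe gave 133, 126 and 131 with Crebl2 siRNA and 141 and 142 with luciferase siRNA (-0.13 ± 0.11, adjusted p = 0.558). Of the other 7 calls, Pfkp, Ldha, Pdk1 and Rpia held in 10 fits that left out 1 array, Aldoc and Eno2 in 9 and Slc2a3 in 2, and all losses of the first 6 came from leaving out a luciferase siRNA, ethanol array (adjusted p up to 0.156). All 9 calls held with the 4 arrays as a block, which leaves Crebl2 siRNA replicates 1 and 2 to carry the comparison. Hk1, at -0.47 ± 0.16 without the block (adjusted p = 0.136), also passed with it (adjusted p = 0.0386), so that 10 of 30 fell and 0 rose, against 7.76% and 4.9% of all genes. With neqc those of Slc2a1, Pfkl, Pfkp, Pdk1 and Rpia held. In a fit of these 2 groups alone, on 5 arrays, 0 of 45 listed probes passed, as did 0 of all 28936. At an unadjusted limma p under 0.05 there were 17 of the 45, against 12.7% of all probes.

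**Figure D4:**
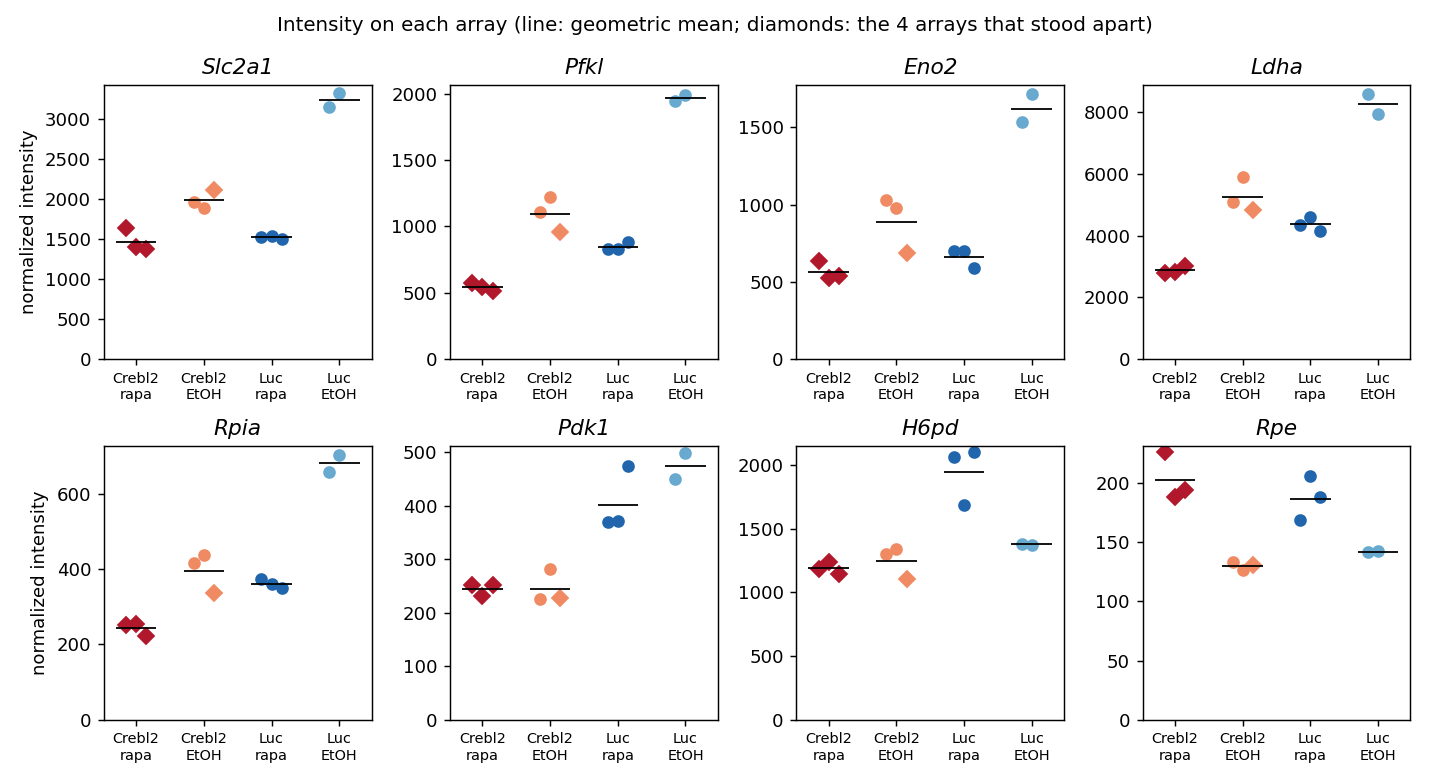
Normalized intensity of 8 genes on each of 11 arrays by group, with the geometric mean as a line; diamonds are the 4 arrays that stood apart. Slc2a1, Pfkl, Eno2, Ldha and Rpia are highest in luciferase siRNA with ethanol, Pdk1 is low in both Crebl2 siRNA groups, H6pd is highest in luciferase siRNA with rapamycin, and Rpe is higher in both rapamycin groups.

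Rapamycin against ethanol in Crebl2 siRNA cells repeats the drug question with the other siRNA. By the best probe 12 of 30 genes fell and 1 rose, where 5.89% of all genes fell and 4.78% rose, and the median log2 difference was -0.27, against -0.02 over all genes. Groups did not overlap for 16 of 30 genes, against 25.5% of all genes. Since all 3 rapamycin arrays but only 1 of 3 ethanol arrays stood apart, the drug and the shift are partly confounded here. With the 4 arrays as a block 4 genes fell and 1 rose, where 2.47% of all genes fell and 4.13% rose, and the value then compares the 3 rapamycin arrays with Crebl2 siRNA, ethanol replicate 3. Pfkl was at 574, 540.5 and 512 with rapamycin against 1112, 1225 and 958 with ethanol (-1.01 ± 0.09, adjusted p = 0.000565), and with the block the difference was -0.82 (adjusted p = 0.000108). Ldha was at 2779, 2814 and 3025 with rapamycin against 5099, 5896 and 4835 with ethanol (-0.87 ± 0.09, adjusted p = 0.000879, with the block -0.75, adjusted p = 0.000415). In both genes every rapamycin array lay below every ethanol array, replicate 3 included. The Pfkl probe near background gave 0.08 ± 0.12 (adjusted p = 0.751). Slc2a1, at 1640.3, 1399 and 1382 with rapamycin against 1960.2, 1886 and 2116 with ethanol, fell by 0.43 (adjusted p = 0.0138, with the block -0.53, adjusted p = 0.00875). Rpia was at 252, 254 and 223 with rapamycin against 416, 439 and 336 with ethanol (-0.70 ± 0.10, adjusted p = 0.00513, with the block -0.47, adjusted p = 0.018). Rpe rose 1.55-fold, at 226, 188 and 194 with rapamycin against 133, 126 and 131 with ethanol (0.64 ± 0.10, adjusted p = 0.00523), and replicate 3 did not differ from the other ethanol arrays, so the blocked value was 0.62 (adjusted p = 0.00406). Without 1 array in turn, Pfkl, Ldha, Rpia and Rpe passed in all 11 fits and Slc2a1 in 8.

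The other 8 calls of this comparison, Aldoa, Tpi1, Pfkfb4, Pgam1, Eno2, Eno3, Pkm and Pgd, were not past the threshold with the block. Pgam1 had about the same value without the block (-0.43 ± 0.11, adjusted p = 0.0368) and with it (-0.46, adjusted p = 0.051). Eno2 was at 638, 526 and 539 with rapamycin against 1029.8, 978 and 688 with ethanol (-0.65 ± 0.15, adjusted p = 0.0268), and its ethanol replicate 3 lay closer to the rapamycin arrays than to the other ethanol arrays (blocked difference -0.28, adjusted p = 0.274). Tpi1 gave -0.53 ± 0.08 (adjusted p = 0.00632) and -0.37 with the block (adjusted p = 0.0576), although its second probe passed with it (-0.53, adjusted p = 0.00555). Pfkp gave -0.61 ± 0.19 (adjusted p = 0.0699) and -0.09 with the block (adjusted p = 0.853).

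The interaction asks whether rapamycin acted differently under the 2 siRNAs. No gene of the set passed (0 of 30, where 0.308% of all genes did), and 9 of 30 had an unadjusted limma p under 0.05, against 14.7% of all genes. The lowest adjusted p was 0.0831, for Slc2a1, with an interaction of 0.66 ± 0.13 (with the block 0.56, adjusted p = 0.0652). Its difference with rapamycin was -0.43 with Crebl2 siRNA and -1.09 with luciferase siRNA. With the 4 arrays as a block 2 genes passed, both positive, Pfkp at 1.04 (adjusted p = 0.00127) and Eno2 at 1.01 (adjusted p = 0.00136), where 1.82% of all genes did. Without the block Pfkp was at 0.52 (adjusted p = 0.428) and Eno2 at 0.65 (adjusted p = 0.29). The second Pfkp probe gave 0.36 without the block and 0.35 with it, and passed in neither fit. Both blocked values rest on Crebl2 siRNA, ethanol replicate 3, the lowest array of its group in both genes. Without Crebl2 siRNA, ethanol replicate 3, 13 of 45 probes of the set passed (28.9%, against 25.0% of all probes), and without any other single array 0 did. Leaving that array out puts all arrays that stood apart in 1 group, so the shift and the interaction can then not be told apart. H6pd, which rose with rapamycin in luciferase siRNA cells, was at 1185, 1240.2 and 1142 with rapamycin against 1305, 1339.9 and 1102 with ethanol in Crebl2 siRNA cells, and its interaction of -0.56 ± 0.15 did not pass (adjusted p = 0.194, with the block -0.39, adjusted p = 0.295).

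Crebl2 siRNA against luciferase siRNA in rapamycin sets 3 arrays that stood apart against 3 that did not, so group and shift cannot be told apart except through 1 array. By the best probe 15 of 30 genes fell and 0 rose, where 20.7% of all genes fell and 11.8% rose. Groups did not overlap for 19 of 30 genes, against 50.6% of all genes. With the block 0 of 30 passed, where 2.57% of all genes did. At an unadjusted limma p under 0.05 there were 6 of 30, against 15.4% of all genes, and 11 of 30 changed sign, against 38.6% of all genes. Epithelial marker sums were 3319 to 3749 with Crebl2 siRNA against 4552 to 5201 with luciferase siRNA, and endothelial sums 1193 to 1295 with Crebl2 siRNA against 1361 to 1425 with luciferase siRNA. By gene, the median log2 difference was -0.425 for the epithelial markers (2 of 4 fell) and -0.053 for the endothelial markers (1 of 6 fell). With the block none of these markers fell. Pdk1 was at 253, 232 and 252 with Crebl2 siRNA against 369.7, 371 and 474 with luciferase siRNA (-0.71 ± 0.12, adjusted p = 0.0029, with the block -0.56, adjusted p = 0.118). For this gene replicate 3 of Crebl2 siRNA with ethanol lay within the range of the other ethanol arrays of that siRNA. Pfkl was at 574, 540.5 and 512 with Crebl2 siRNA against 832, 833 and 881 with luciferase siRNA (-0.65 ± 0.09, with the block -0.36, adjusted p = 0.26). Eno3 was at 771, 771 and 856 with Crebl2 siRNA against 1619, 1825 and 1495 with luciferase siRNA (-1.04 ± 0.16, adjusted p = 0.00186), the most negative difference here, and with the block it was -0.41 (adjusted p = 0.229). Slc2a1 gave 1640.3, 1399 and 1382 with Crebl2 siRNA and 1526, 1539.9 and 1507 with luciferase siRNA, with overlapping groups (-0.05 ± 0.08, adjusted p = 0.685, with the block -0.19, adjusted p = 0.669).

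Among the other calls of this comparison, all lost with the block, H6pd was at 1185, 1240.2 and 1142 with Crebl2 siRNA against 2066, 1689 and 2101 with luciferase siRNA (-0.71 ± 0.10, adjusted p = 0.00171, with the block -0.45). Pfkfb4 was at 239, 253 and 275 with Crebl2 siRNA against 481, 464 and 441 with luciferase siRNA (-0.85 ± 0.11, adjusted p = 0.000917, with the block -0.51). Neither gene had overlapping groups, and in both the Crebl2 siRNA arrays were the low ones. Pkm was at 5809, 5349 and 5059.7 with Crebl2 siRNA against 9312, 8875 and 9893 with luciferase siRNA (-0.79 ± 0.13, adjusted p = 0.00281, with the block -0.27). Pkm in ethanol was at 9491, 9636 and 6671 with Crebl2 siRNA against 10273 and 11203 with luciferase siRNA, so replicate 3, which stood apart, was the low array there too. Pfkm was at 2801, 2364 and 2767 with Crebl2 siRNA against 3854, 4138 and 3335 with luciferase siRNA (-0.51 ± 0.11, adjusted p = 0.0068, with the block -0.31). Gapdh, often used as a loading control, was at 12584, 12673 and 12831 with Crebl2 siRNA against 12829, 14193 and 13792 with luciferase siRNA and did not pass (-0.10 ± 0.09, adjusted p = 0.434, with the block 0.10, adjusted p = 0.85).

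Probes of one gene showed how far the 4 arrays differ. A second Pgam1 probe read 3048, 2506 and 2309.8 with Crebl2 siRNA and rapamycin and 3850 on Crebl2 siRNA, ethanol replicate 3, but 251 to 465 on the other 7 arrays, while the probe that stands for Pgam1 read between 1311 and 2243 on all 11. The difference of the second probe between the siRNAs in rapamycin was 3.29 ± 0.70 (adjusted p = 0.00685) and -0.07 with the block. Another Pgk1 probe read 283 to 332 on the 4 arrays and 89 to 113 on the other 7, with a difference of 1.60 ± 0.31 (adjusted p = 0.005) and 0.16 with the block. In both genes the probe that stands for the gene did not pass in this comparison. The Pfkl probe near background gave 0.25 ± 0.12 here (adjusted p = 0.159), against -0.65 for the probe that stands for Pfkl.

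**Figure D5:**
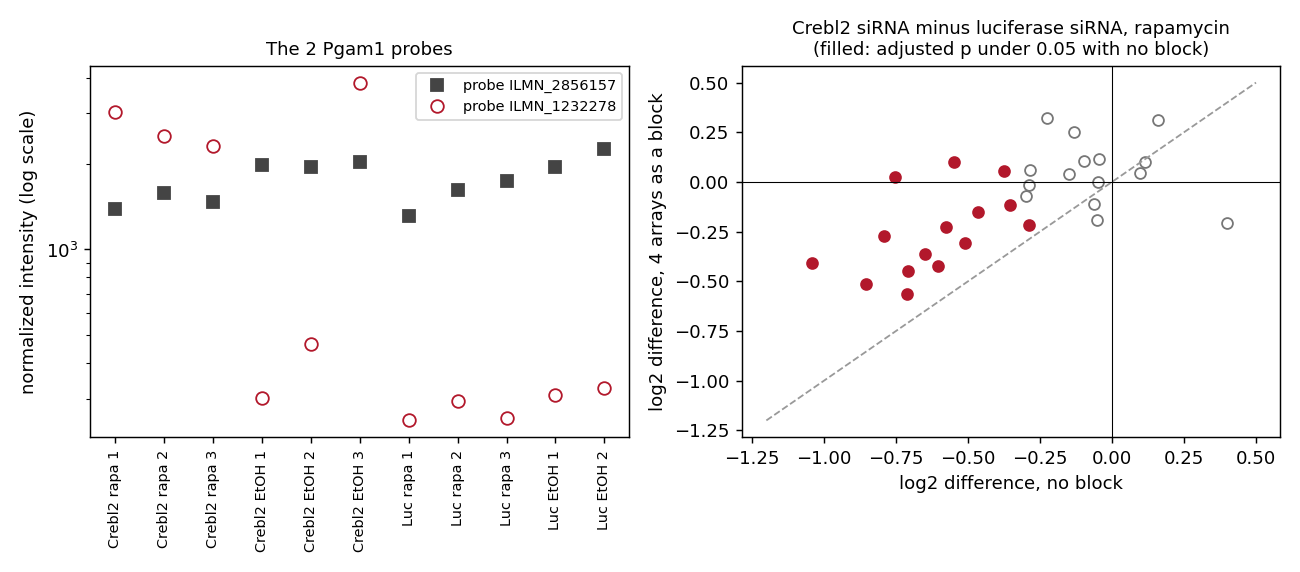
Left, intensity (log axis) of the 2 Pgam1 probes on each array; the open circles jump to 2310 to 3850 on the 4 arrays that stood apart. Right, log2 difference of each gene between Crebl2 and luciferase siRNA in rapamycin without the block (x axis) and with it (y axis); filled points passed without the block, the dashed line marks equal values, and the filled points lie above it.

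Other genes of these pathways were taken from a list of 60, chosen by role. Of these 40 were above background, and with rapamycin in luciferase siRNA cells 3 fell and 0 rose, where 4.46% and 4.8% of all genes did, with a median of -0.01. They were Pgam5, a mitochondrial phosphatase named for its relation to phosphoglycerate mutase (-0.45 ± 0.10, adjusted p = 0.0175), Pgm2, a phosphoglucomutase (-0.44 ± 0.12, adjusted p = 0.0469), and Prps1, which turns ribose 5-phosphate into the nucleotide precursor PRPP (-0.56 ± 0.15, adjusted p = 0.0468). With the 4 arrays as a block 6 fell and 4 rose, against 9.76% and 11.7% of all genes, and the 4 were the glucose transporters Slc2a8 and Slc2a10, Emb, and the fructose bisphosphatase Fbp2 (adjusted p = 0.00794, 0.0376, 0.0481 and 0.0347 in that order). With Crebl2 siRNA in ethanol 2 of 40 fell and 0 rose, near the 5.32% and 1.32% of all genes. They were the glucose transporter Slc2a10 (-0.43 ± 0.09, adjusted p = 0.0155) and Emb, a chaperone of monocarboxylate transporters (1811, 1962 and 2192 with Crebl2 siRNA against 3056 and 2582 with luciferase siRNA, -0.50 ± 0.11, adjusted p = 0.0271).

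Among 19 regulators, all above background, 2 fell and 0 rose with rapamycin in luciferase siRNA cells, where 4.46% and 4.8% of all genes did, and with the block 5 fell and 0 rose, against 9.76% and 11.7%. Hif1a, the oxygen-regulated HIF-1 subunit, was at 146, 158 and 142 with rapamycin against 219 and 249 with ethanol (-0.65 ± 0.13, adjusted p = 0.0114). Arrdc4, an arrestin-domain gene that restrains glucose uptake, was at 1468, 1357 and 1281 with rapamycin against 2309.8 and 2545 with ethanol (-0.83 ± 0.17, adjusted p = 0.0146). With Crebl2 siRNA in ethanol 4 of 19 fell and 0 rose, where 5.32% and 1.32% of all genes did. Txnip, which restrains glucose uptake through GLUT1, was at 1269.7, 1526 and 924 with Crebl2 siRNA against 3582 and 4209 with luciferase siRNA (-1.68 ± 0.17, adjusted p = 0.000624). In rapamycin Txnip was at 1181, 1368 and 1286 with Crebl2 siRNA against 3554, 3226 and 3355 with luciferase siRNA, and with the 4 arrays as a block that difference was -0.81 (adjusted p = 0.00883). All 6 Crebl2 siRNA arrays of Txnip lay below all 5 luciferase siRNA arrays. Arrdc4 (-0.92 ± 0.17, adjusted p = 0.011), Hif1a (-0.57 ± 0.13, adjusted p = 0.0269) and Myc (-0.42 ± 0.10, adjusted p = 0.0322) also fell in ethanol.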

How the data were processed

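RNA levels were read from 11 Illumina mouse bead arrays with 1 colour each. Per the labels, RNA was isolated with TRIZOL and labelled with biotin and Cy3-streptavidin. The deposited normalized table gives linear intensity, made by the authors with a normalization not given in the sources used here. Per the file headers it also holds a detection p-value for each probe and array. In the deposited non-normalized table the 46237 probe identifiers do not belong to the values (r with the normalized table on an array between -0.00964 and -0.00628). Its lines were matched back by their ranks over the arrays (r between 0.999653 and 0.999996) and used for 1 alternative only. That was neqc, which corrects background, adds an offset and normalizes by quantiles.

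A probe was kept where its detection p-value was under 0.05 on 2 or more arrays (28936 of 46237). Log2 values entered 1 limma fit (version 3.58.1, R 4.3.3, lmFit and eBayes) of 4 group means, with 7 residual and 3.64 prior degrees of freedom. Benjamini-Hochberg adjustment ran over all kept probes of a comparison, with a threshold of 0.05. Differences are given with the standard error of the fit. The scripts were tested on simulated data. Probe symbols came from the platform annotation (35784 of 46237 probes with 1 symbol, 10453 with none). All listed genes could be named, and per-array values are given for those past the threshold and their isoforms. Genes, lists and tests were chosen with earlier results of these data known. Alternatives were a replicate block, the 4 arrays as a block or left out, other filters, offsets and scalings, the compared groups alone, and each array left out in turn. Same-numbered arrays did not deviate together (r between -0.106 and 0.146), so the numbers were not taken as pairs. The number of arrays limits the precision.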

Additional observations from a re-analysis of the deposited data

Results flagged for a closer look

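For Pfkfb4 and Pdk2, the rapamycin arrays all lay above the ethanol arrays with luciferase siRNA and all below them with Crebl2 siRNA. Among these differences only that of Pfkfb4 with Crebl2 siRNA passed in limma (-0.47, adjusted p = 0.0262). With the 4 arrays that stood apart as a block it did not pass (-0.24). Pfkfb4 was at 239, 253 and 275 with rapamycin against 413, 355 and 302 with ethanol in Crebl2 siRNA cells, and at 481, 464 and 441 with rapamycin against 388 and 381 with ethanol in luciferase siRNA cells. Its interaction was -0.735 on the log2 scale and did not pass in limma (adjusted p = 0.113, and with the 4 arrays that stood apart as a block -0.506, adjusted p = 0.112). Pdk2 was at 118, 121 and 129 with rapamycin against 138, 134 and 129 with ethanol in Crebl2 siRNA cells, and at 167, 152 and 133 with rapamycin against 126 and 123 with ethanol in luciferase siRNA cells. In Crebl2 siRNA cells its nearest arrays were at 128.85 with rapamycin and 129.32 on ethanol replicate 3, which stood apart, so these groups nearly touched. The Pdk2 interaction of -0.387 did not pass (adjusted p = 0.286, with the block -0.341, adjusted p = 0.383). Both interactions kept their sign with the block, and in neither fit did they pass. Rapamycin and ethanol arrays did not overlap for 44.5% of all genes with luciferase siRNA and for 25.5% with Crebl2 siRNA. The share of all genes with opposite directions was not counted, so it cannot be said whether this pattern is unusual. The Crebl2 siRNA, rapamycin arrays were all among those that stood apart.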

How the results depend on the processing

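Counts of calls are given for all probes and then for probes of the listed genes. For rapamycin with luciferase siRNA, 2099 and 15 probes passed. The counts were 5172 and 19 with the 4 arrays as a block, 5113 and 20 with the 7 other arrays alone, 4697 and 20 with the compared groups alone, and with neqc 1070 and 8. For rapamycin with Crebl2 siRNA, 2614 and 14 passed, against 1546 and 7 with the 4 arrays as a block, 1700 and 9 with neqc, and 206 and 3 with the compared groups alone. For Crebl2 siRNA in ethanol, 1598 and 11 passed, against 3109 and 13 under the block, 3058 and 12 with 7 arrays, 733 and 5 with neqc, and 0 and 0 with the compared groups alone (3662 and 17 at an unadjusted limma p under 0.05). For Crebl2 siRNA in rapamycin, 8676 and 20 passed, against 575 and 0 with the block (6 listed probes at an unadjusted p under 0.05) and 5231 of all probes with 1 probe per gene, where fewer probes are tested. For the interaction, 67 and 0 passed (10 listed probes at an unadjusted p under 0.05), against 412 and 2 with the block and 0 of all probes with neqc (3648 at an unadjusted p under 0.05). Other causes of these differences were not tested.

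With the replicate number as a block, which the pairing check did not bear out, 968 probes passed for Crebl2 siRNA in ethanol and 11 for the interaction. Of the listed probes called, 9 of 15, 14 of 14, 8 of 11 and 20 of 20 were kept under it, in the order above. Leaving out 1 array gave 584 to 5172 and 7 to 19 probes for rapamycin with luciferase siRNA, the lowest without either ethanol array. It gave 630 to 10247 and 6 to 23 for rapamycin with Crebl2 siRNA, and 224 to 3109 and 3 to 13 for Crebl2 siRNA in ethanol. The ranges were 5939 to 11790 and 16 to 24 for Crebl2 siRNA in rapamycin, and 0 to 7244 and 0 to 13 for the interaction, the highest without Crebl2 siRNA, ethanol replicate 3.

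With the 4 arrays as a block, 5 called probes changed sign for Crebl2 siRNA in rapamycin, to 0.022 for the second Pfkm probe, 0.026 for Pfkp, 0.055 for Aldoa, -0.073 for the second Pgam1 probe and 0.101 for Taldo1. No isoform ratio changed sign with neqc or an offset of 16, but the change of Slc2a1 over Slc2a3 with rapamycin was smaller with neqc. Probes near background, such as Slc16a1, Pfkfb3 and Crebl2, allow no statement on small changes.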
